A study of Mus musculus with 2 samples.

Results

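MicroRNAs (miRNAs) whose transcription responds to cytokines and other immune signals were followed in mouse knee cartilage. They were mmu-miR-146a-5p, mmu-miR-146b-5p, mmu-miR-155-5p, mmu-miR-132-3p, mmu-miR-212-3p and mmu-miR-31-5p (the mouse prefix mmu is left out from here on). These were chosen by name, with earlier results of these data known, and make up 6 of the 1247 mouse miRNAs with probes on the array. The study hybridised 1 Agilent one-colour miRNA array for each of 2 groups of male mice aged 8 weeks, with RNA from articular cartilage peeled off the knee. The control sample has the genotype label wildtype, and the Col2a1Tsc1KO sample is labelled Col2a1; Tsc1 KO, where Col2a1 encodes the main cartilage collagen and Tsc1 a protein that holds back the growth kinase complex mTORC1. The design text calls the deletion specific to Col2a1, while the Cre line, the cells that lack Tsc1 and the number of mice in a sample are not given in the sources used here. No probe reads the Tsc1 mRNA, so the knockout label could not be checked.

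A miRNA is a short RNA that guides an Argonaute protein to mRNAs, mainly through its seed at bases 2 to 8, and lowers their output. Transcription of Mir146 and Mir155 is induced by NF-kB and related factors downstream of interleukin and Toll-like receptors. miR-146 acts as a brake on that pathway through the adaptor proteins TRAF6 and IRAK1, whereas miR-155 promotes inflammatory gene expression, in part by repressing the phosphatase SHIP1. miR-132 and miR-212 are made from 1 primary transcript and respond to CREB, a factor activated by growth factors and cyclic AMP. miR-31 is known from inflamed epithelium and from bone-forming cells.

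The mature sequences show which members can address the same mRNAs. They are given 5′ to 3′ from RefSeq (GRCm38.p6), with the seed in capitals.
miR-146a-5p: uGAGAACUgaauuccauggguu
miR-146b-5p: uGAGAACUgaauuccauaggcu
miR-132-3p: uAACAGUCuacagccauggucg
miR-212-3p: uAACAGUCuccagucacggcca
miR-155-5p: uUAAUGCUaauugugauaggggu
miR-31-5p: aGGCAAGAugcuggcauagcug

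The members thus fall into 2 pairs of shared seed and 2 miRNAs alone. Of the array's miRNAs, 1017 matched a RefSeq name and 230 did not. Among the matched ones, the seed of the miR-146 pair and that of miR-132 and miR-212 occur in no further miRNA, and those of miR-155-5p and miR-31-5p occur in no other. The miR-146 pair is identical at 20 of 22 bases and differs by G18A and U21C (miR-146a base, position from the 5′ end, miR-146b base). miR-132-3p and miR-212-3p share 17 of 22 bases and differ by A10C, C14U, U17C, U20C and G22A. The 2 members of the miR-146 pair are made from separate genes. miR-146a-5p lies at chr11:43374435-43374456 on the minus strand, and miR-146b-5p at chr19:46342790-46342811 on the plus strand, where the hairpin lies within the span of the long non-coding gene Gm36493. The hairpins of miR-212 and miR-132 are neighbours on the plus strand of chromosome 11, 203 bases apart, with the mature forms at chr11:75173443-75173464 and chr11:75173723-75173744. miR-155-5p lies at chr16:84714143-84714165 (plus strand) within the span of its host gene Mir155hg, and miR-31-5p at chr4:88910614-88910635 (minus strand) within the span of Gm49890.

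Array probes pair with the 3′ part of a miRNA, and each member had 2 probes that differ in length by 1 base. The 19-base probes of the miR-146 pair are shown because their signals went in opposite directions, with the bases that differ in capitals.
miR-146a-5p probe: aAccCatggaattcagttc
miR-146b-5p probe: aGccTatggaattcagttc

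These 2 probes pair with bases 4 to 22 of their miRNA and differ from each other at 2 bases, positions 2 and 5 of the probe. Each probe was printed in 20 spots on each array. Spots of 1 array are repeats within 1 hybridisation, so the standard errors (SE) over spots hold technical noise alone. With 1 array per group there is no replicate check of any difference, no p-value was computed, and a 2-fold difference (1 on the log2 scale) is only a threshold for counts. The number of arrays limits the precision.

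Values are background-subtracted spot intensities scaled so that the 75th percentile of the measured probes is equal on both arrays, and a probe counts as well above background where more than 50% of its usable spots carry the software's mark for it. Between 19.6% (control) and 21.1% (Col2a1Tsc1KO) of miRNA spots were well above background and 0 were saturated. Negative-control spots had unscaled medians of 5.02 and 4.93. The arrays shared 1 slide, where genotype and place cannot be told apart. In these bulk samples, fewer cells of a type and less RNA per cell cannot be told apart either. All 6 chondrocyte markers, among them the cartilage miRNAs miR-140-5p and miR-455-3p, were well above background on both arrays.

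miR-146a-5p stood higher on the Col2a1Tsc1KO array and miR-146b-5p stood lower, although they share a seed. miR-155-5p and miR-212-3p differed little, miR-132-3p was well above background on the Col2a1Tsc1KO array alone, and miR-31-5p was near the negative controls on both arrays. Of the 6 members, 4 were measured on both arrays. On the Col2a1Tsc1KO array 1 of these 4 was higher by 2-fold or more, against 15.6% of all 257 miRNAs measured on both arrays, and 1 was lower by 2-fold or more, against 17.5%. With 4 values, nothing particular to the members can be read from these counts.

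For miR-146a-5p, the NF-kB-induced brake, the 19-base probe had scaled intensities from 49.9 to 72.4 with a median of 62.0 on the control array, and from 157.0 to 182.1 with a median of 169.1 on the Col2a1Tsc1KO array. The spots of the arrays did not overlap. Spots repeat within 1 hybridisation, and how many of all measured miRNAs separate likewise is not given here. The log2 difference, Col2a1Tsc1KO minus control, was 1.49 ± 0.04 (SE over spots), or 2.81-fold. The 18-base probe ran from 1.995 to 18.3 on the control array, where none of its 20 spots was well above background, and from 25.1 to 40.9 on the Col2a1Tsc1KO array, where all 19 usable spots were. It gives only a bound: at least 1.36-fold higher, taken against the lowest scaled intensity of any probe well above background on the control array, 24.9. At all 38 array positions where both arrays had a usable spot of either probe, the Col2a1Tsc1KO spot was the brighter one, also with no scaling.

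For miR-146b-5p, the paralogue, the 19-base probe ran from 285.9 to 326.3 with a median of 302.1 on the control array and from 117.1 to 133.6 with a median of 128.4 on the Col2a1Tsc1KO array. The 18-base probe ran from 46.8 to 59.3 with a median of 55.2 on the control array and from 19.0 to 33.3 with a median of 25.4 on the Col2a1Tsc1KO array. On neither probe did the arrays overlap, and at 0 of 33 positions was the Col2a1Tsc1KO spot brighter, scaled or not. The log2 difference was -1.25 ± 0.02 on the longer and -1.10 ± 0.05 on the shorter probe, and -1.18 ± 0.03 over both, or 2.26-fold lower. With no scaling it was -0.77, which is under 2-fold, and that of miR-146a-5p was 1.90.

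**Figure D1:**
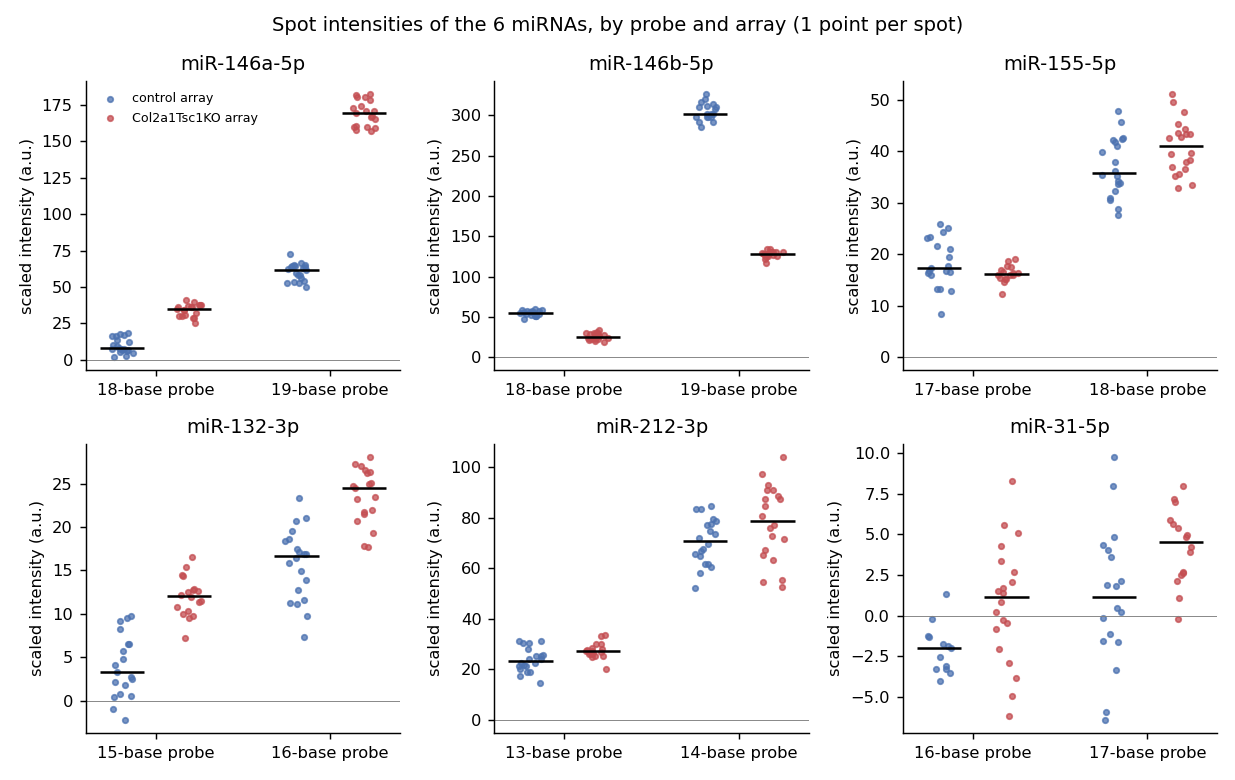
Scaled intensity (arbitrary units, linear axis) of every usable spot of the 6 miRNAs, by probe length, on the control (blue) and Col2a1Tsc1KO (red) arrays, with black lines at the medians. Both miR-146a-5p probes are higher and both miR-146b-5p probes lower on the Col2a1Tsc1KO array without overlap, miR-155-5p and miR-212-3p overlap, and miR-31-5p lies around 0. Spots repeat within 1 hybridisation, and their overlap in other miRNAs is not shown.

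The gap between the log2 differences of the miR-146 pair does not move with a constant scaling. It was 2.67 ± 0.05, so the ratio of miR-146a-5p to miR-146b-5p signal was 6.36-fold higher on the Col2a1Tsc1KO than on the control array. Each SE covers spots alone. Among the 257 measured miRNAs, 63 share a seed with at least 1 other and form 91 pairs over 21 seeds. The median gap of these pairs was 0.56, and the miR-146 pair had the largest, followed by miR-130a-3p and miR-130b-3p at 2.07. It was also the 1 pair with both miRNAs past 2-fold in opposite directions. Pairs of 1 seed overlap, and the miR-146 pair was chosen with its values known, so its rank is a description. The pair ranked first in 11 of 13 alternative settings. Some of these 11 change only the constant scaling: over all probes, to the median, to spike-ins, or none. They leave every gap unchanged and cannot move the rank, so they do not test it. The pair ranked second with another background correction and scaling together (normexp followed by quantile normalization), with a gap of 1.51. With the software's total gene signals it ranked sixth, with a gap of 2.98.

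miR-155-5p, which promotes inflammatory gene expression, was dim on both arrays. Its 18-base probe ran from 27.6 to 47.7 with a median of 35.8 on the control array and from 32.9 to 51.1 with a median of 41.1 on the Col2a1Tsc1KO array. The spots of the arrays overlapped over most of their range, and the Col2a1Tsc1KO spot was brighter at 14 of 20 positions. The log2 difference was 0.15 ± 0.065, or 1.11-fold. The 17-base probe, which was not well above background on either array, had medians of 17.3 and 16.1, and the Col2a1Tsc1KO spot was brighter at 5 of 15 positions. The 2 probes thus leaned in opposite directions at this scaling. With no scaling the Col2a1Tsc1KO spot was brighter at 29 of the 35 positions of both probes, against 19 of 35 as scaled, and the difference of the longer probe was 0.56.

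The CREB-responsive pair differed in how well it could be measured. For miR-212-3p, the 14-base probe ran from 52.0 to 84.7 with a median of 71.0 on the control array and from 52.6 to 104.1 with a median of 78.8 on the Col2a1Tsc1KO array. These ranges overlapped, and the log2 difference was 0.13 ± 0.08, where the SE covers spots alone. Its 13-base probe had medians of 23.2 and 27.1 and was well above background on the Col2a1Tsc1KO array alone, which gives at least 1.095-fold higher there. The Col2a1Tsc1KO spot was brighter at 27 of the 37 positions of both probes, and at 37 of 37 with no scaling, where the difference was 0.54. The size of the miR-155-5p and miR-212-3p differences thus rests on the scaling.

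miR-132-3p, from the same primary transcript, was well above background only on the Col2a1Tsc1KO array and only with its 16-base probe, at 19 of 19 usable spots against 0 of 20 on the control array. That probe ran from 7.30 to 23.4 with a median of 16.7 on the control array and from 17.7 to 28.1 with a median of 24.5 on the Col2a1Tsc1KO array. Of its usable control spots, 14 of 20 exceeded the 95th percentile of the negative-control spots, as did 19 of 19 Col2a1Tsc1KO spots. The 15-base probe had medians of 3.30 and 12.1. The Col2a1Tsc1KO spot was brighter at 35 of 36 positions of both probes, and at 36 of 36 with no scaling. No fold is given at this scaling, because the Col2a1Tsc1KO signal lies below the lowest control signal that was well above background. Under 4 other scalings the bound was between 1.02-fold and 1.27-fold higher. Whether miR-132-3p and miR-212-3p differed from each other could therefore not be measured.

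miR-31-5p was not well above background at any usable spot. Unscaled intensities of its 17-base probe had a median of 0.998 on the control array, from -5.58 to 8.49, and 5.21 on the Col2a1Tsc1KO array, from -0.217 to 9.21. The 16-base probe had medians of -1.75 and 1.28. None of the 31 usable control spots and none of the 36 usable Col2a1Tsc1KO spots exceeded the 95th percentile of the negative-control spots. A level of miR-31-5p was thus not detectable with these probes in either sample.

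The opposite arm of each hairpin, usually degraded after the duplex is opened, did not stand above the negative controls. The 14 probes for miR-146a-3p, miR-146b-3p, miR-155-3p, miR-132-5p, miR-212-5p and miR-31-3p had unscaled medians from -5.38 to 1.63 on the control and from -6.99 to 1.85 on the Col2a1Tsc1KO array. Of their usable spots, 0 of 225 and 0 of 229 were above the 95th percentile of the negative controls. The opposite arms therefore offer no second reading of the miR-146 difference.

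Among all 257 measured miRNAs, miR-146a-5p had the 13th highest log2 difference and miR-146b-5p the 30th lowest, while miR-155-5p and miR-212-3p stood 87th and 91st from the top. The median over all 257 was -0.22, and relative to it the members stood at 1.71, -0.96, 0.37 and 0.34 in the same order. The differences of miR-155-5p and miR-212-3p lay 0.02 ± 0.10 (SE over spots) apart, and both lay over 1.3 from either miR-146 member. Nearest in difference over the 2 arrays were miR-125a-5p (1.49) to miR-146a-5p, miR-574-3p (-1.17) to miR-146b-5p, miR-378b (0.15) to miR-155-5p and miR-361-5p (0.12) to miR-212-3p.

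**Figure D2:**
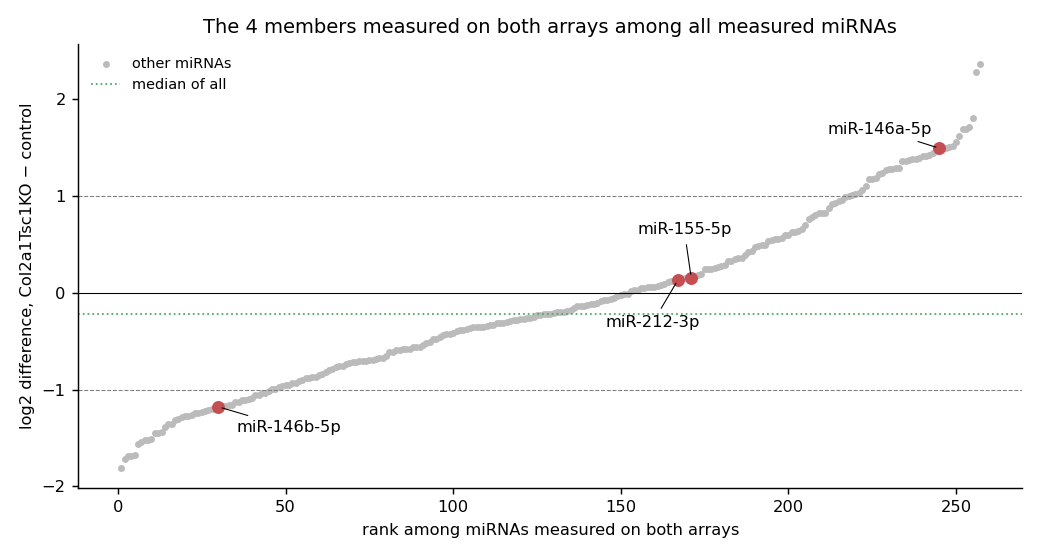
Log2 difference, Col2a1Tsc1KO minus control, of the 257 miRNAs measured on both arrays in rising order, with the 4 measured members in red, dashed lines at 2-fold and a dotted line at the median of -0.22. miR-146a-5p lies above the upper and miR-146b-5p below the lower dashed line, and the other 2 lie close to 0.

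In the authors' deposited table of log2 values, miR-146a-5p stood at 4.48 on the control and 6.41 on the Col2a1Tsc1KO array, and miR-146b-5p at 7.12 and 6.04. miR-155-5p stood at 4.35 and 4.54 and miR-212-3p at 5.11 and 5.48 in the authors' deposited table. miR-132-3p was there at the control column's floor of -3.26 and at 3.92 on the Col2a1Tsc1KO array, and miR-31-5p and all 6 opposite arms were at the floor of both columns. The directions are those of the spot intensities for each member that could be compared.

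**Figure D3:**
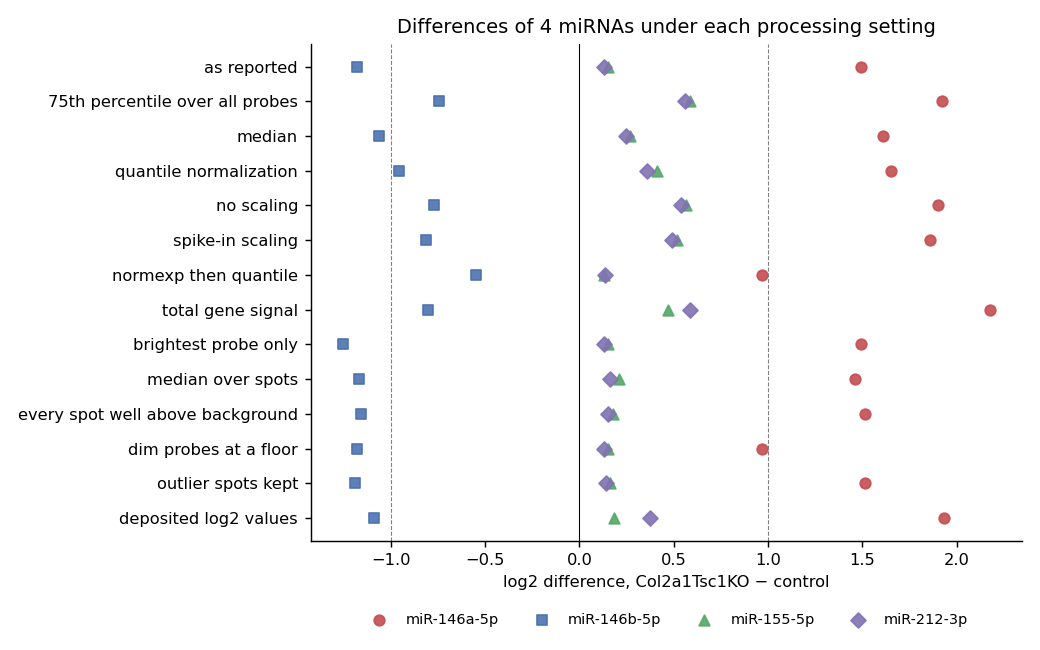
Log2 difference, Col2a1Tsc1KO minus control, of the 4 measured members (symbols) under the reported and 13 alternative processing settings (rows), with dashed lines at 2-fold. miR-146a-5p ran from 0.97 to 2.18 and miR-146b-5p from -1.25 to -0.55, and each member kept its sign in all 13 alternatives. Settings that change only a constant scaling raised every value, so positive ones could not change sign there.

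Whether a miR-146 member counts as past 2-fold depended on the setting. miR-146b-5p was under 2-fold when arrays were scaled to the 75th percentile of all probes or left unscaled, where 5.06% of all miRNAs were lower by 2-fold or more and 23% higher. The same held with spike-in scaling (5.45% lower, 21.4% higher), quantile normalization (14% lower, 16% higher) and the software's total gene signals (8.88% lower, 24% higher). Both members were under 2-fold after normexp followed by quantile normalization, where 3.5% of all miRNAs were lower and 5.84% higher by that much. With dim probes set to a floor, miR-146a-5p was under 2-fold, against 12.8% of all higher and 13.4% lower. There the bound of its 18-base probe (0.45 on the log2 scale) enters the mean, so that value is a lower limit.

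Other miRNAs tied to inflammatory signalling stood mostly higher on the Col2a1Tsc1KO array. Of a list of 16 chosen without the members, 11 were measured on both arrays: 6 were higher by 2-fold or more, 1 was lower by as much and 4 lay between, with a median log2 difference of 1.06 against -0.22 over all 257. Over all 257, 15.6% were higher and 17.5% lower by that much. The median of the list was 0.62 in the authors' deposited table and 0.52 after normexp followed by quantile normalization, both under 2-fold. The highest was miR-125a-5p at 1.49 ± 0.04. Its relative miR-125b-5p, a repressor of TNF mRNA, stood at 1.18 ± 0.01, and miR-27b-3p, which represses the collagenase MMP13 in chondrocytes, at 1.17 ± 0.02. Also past 2-fold were miR-27a-3p at 1.27 ± 0.01, miR-149-5p at 1.10 ± 0.05 and miR-181b-5p at 1.06 ± 0.02. The TLR4-targeting let-7i-5p stood at 0.70 ± 0.02, the widely induced miR-21a-5p at 0.25 ± 0.02, miR-98-5p at 0.24 ± 0.02 and miR-221-3p at -0.28 ± 0.02. The myeloid miR-223-3p alone was at least 2-fold lower, at -1.17 ± 0.01. The Toll-like receptor-induced miR-147-3p, the interleukin-10-induced miR-187-3p, miR-9-5p, miR-9-3p and miR-203-3p did not reach that level on any array, having no probe well above background. Several of these miRNAs are abundant in connective tissue cells, and the list was made with earlier results of these data known. Seeds are shared by miR-27a-3p and miR-27b-3p, by miR-125a-5p and miR-125b-5p, and by let-7i-5p and miR-98-5p, so the 11 are not separate readings. Of the chondrocyte markers, 4 of 6 were likewise higher by 2-fold or more. Nothing particular to inflammation can therefore be read from the list.

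miR-146 and miR-155 are also made by leukocytes, so leukocyte markers are set beside them. All 5 listed markers were measured on both arrays and none was at 0, and their scaled intensities summed to 9728 (control) and 4597 (Col2a1Tsc1KO). Most of that sum is miR-223-3p at 8163 and 3632. The pan-leukocyte miR-142-3p and miR-142-5p stood at -0.95 ± 0.03 and -0.59 ± 0.03, whereas the lymphocyte miRNA miR-150-5p stood at 0.64 ± 0.06 and miR-342-3p at 0.59 ± 0.02. Thus 3 of 5 leukocyte markers were lower and 2 of 5 higher on the Col2a1Tsc1KO array, where 152 of all 257 measured miRNAs lay below 0. With 5 markers, nothing particular to leukocytes can be read from this split. With no scaling the median of the list moved from -0.59 to -0.18.

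Markers of other tissues differed between the arrays by unlike amounts at the reported scaling. For the 6 chondrocyte markers, scaled intensities summed to 2430 (control) and 5524 (Col2a1Tsc1KO), and 4 of the 6 were higher by 2-fold or more, against 15.6% of all 257 miRNAs. The sums were 1410 and 737 for the 4 skeletal muscle markers, whose median log2 difference was -0.97. They were 1555 and 1977 for both endothelial markers, and 2340 and 3472 for the red cell markers miR-451a and miR-144-3p. No listed marker with a probe was at 0, and no probe on the array carried the name miR-486-5p. The part of these cell types in the differences of miR-146a-5p, miR-146b-5p and miR-132-3p was not tested.

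**Figure D4:**
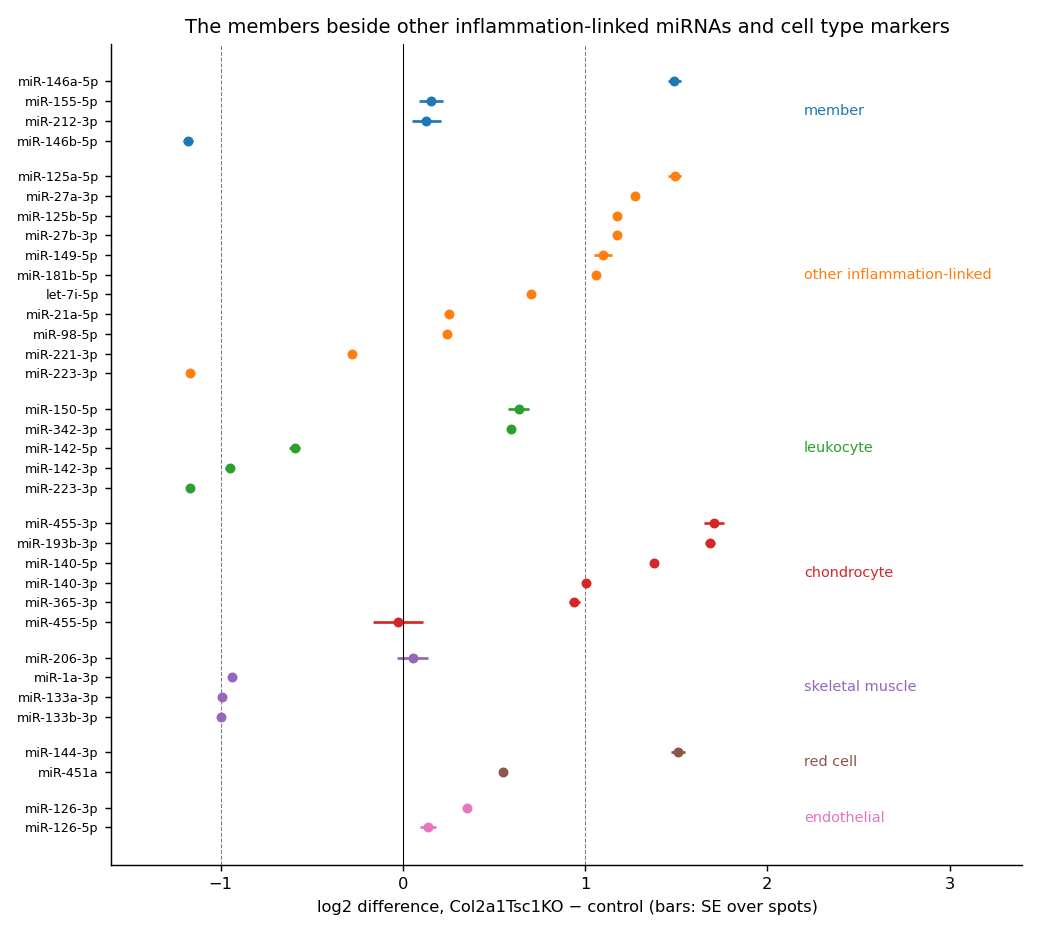
Log2 difference, Col2a1Tsc1KO minus control, of the members and of the listed miRNAs measured on both arrays, grouped by list (colours), with bars for the SE over spots and dashed lines at 2-fold. miR-146a-5p lies with miR-125a-5p at 1.49. miR-146b-5p lies at -1.18, and the leukocyte markers run from -1.17 (miR-223-3p) to 0.64 (miR-150-5p).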

How the data were processed

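Per the file headers, the deposited scanner files hold spot intensity values that Agilent Feature Extraction 10.7 had background-subtracted with spatial detrending and not scaled between arrays. The authors also deposited a table of log2 values, whose making no source used here describes. Across miRNAs above its floor, its columns followed the log2 of the summed spot intensities with Pearson r of 0.986 (control, 327 miRNAs) and 0.950 (Col2a1Tsc1KO, 348 miRNAs), and the difference between columns with r of 0.894 (304 miRNAs); miRNAs are not independent replicates. The log2 scale and the direction are thus borne out. The median difference between columns over the 304 miRNAs was 0.000, and how the columns were centred was not settled. Column medians were -3.26 and -3.32, which are also the floors.

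Spots marked as outliers were dropped, log2 intensities were averaged over spots, and each array was scaled to the 75th percentile of the probes well above background on both. Printed scaled intensities are brought to the mean of both percentiles. A miRNA's difference is the mean over such probes. A bound sets a probe's signal over the higher of the other array's lowest signal well above background and its own signal there. The 13 alternatives covered scaling, quantile normalization, normexp (limma 3.58.1, offset 50) followed by quantile normalization, total gene signals, probe and spot summaries, filters, outliers and the deposited values. The steps were tested on simulated data. Members, lists and alternatives were chosen with earlier results of these data known. Named miRNAs were the members, their opposite arms, the nearest miRNA in difference to each measured member, and the listed miRNAs. miR-130a-3p and miR-130b-3p were named after their values were seen.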

Additional observations from a re-analysis of the deposited data

How the results depend on the processing

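No paired analysis was possible because each group held 1 array, and no array could be left out. All 52 values of the 4 measured members under the 13 alternatives kept the sign of the reported value. The alternatives that change only a constant scaling raised every value, by 0.12 to 0.43. The positive values of miR-146a-5p, miR-155-5p and miR-212-3p could not change sign under them, so those settings do not test it. The median of all miRNAs did change sign, from -0.22 as reported. It was 0.22 with the 75th percentile of all probes, 0.20 unscaled, 0.15 with spike-ins and 0.23 with total gene signals. It moved up by 0.12 when scaled to the median, and by 0.22 in the deposited values. Scaling to the 75th percentile of all probes moved it by 0.43, leaving the arrays unscaled by 0.41, spike-ins by 0.37, quantile normalization by 0.19, normexp followed by quantile normalization (below, normexp with quantile) by 0.18 and total gene signals by 0.44. Under these 6 settings, in that order, miR-146a-5p was 1.92, 1.90, 1.85, 1.65, 0.97 and 2.18, and miR-146b-5p was -0.74, -0.77, -0.81, -0.95, -0.55 and -0.80. miR-146a-5p was also 1.93 in the deposited values and 0.97 with dim probes at a floor, which adds the bound of its dimmer probe. Under the same settings without quantile normalization and normexp with quantile, miR-155-5p was 0.59, 0.56, 0.52 and 0.47, and miR-212-3p 0.56, 0.54, 0.49 and 0.585. The gap of the miR-146 pair was 1.51 after normexp with quantile, 2.15 with a floor, 2.98 with total gene signals and 3.02 in the deposited values. The count of members higher by 2-fold or more became 0 after normexp with quantile and with a floor. The count of members lower by 2-fold or more became 0 under each of the 6 settings. Of all 257 miRNAs, 85 were past 2-fold (40 higher and 45 lower) and 24 (15 and 9) after normexp with quantile, against 41 higher and 36 lower with quantile normalization alone. The normexp step adds an offset of 50, and normexp alone was not run. With no scaling the split was 59 higher and 13 lower. A gap between miR-132-3p and miR-212-3p could not be computed at any setting. Signal over background limits miR-155-5p, miR-132-3p and miR-31-5p.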
